A study of Mus musculus with 28 samples.

Results

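Matricellular proteins and fibronectin were examined in tail tendon fascicles of Fosl-2(Tg) mice and WT controls through 9 genes, a list given by gene name and drawn up with earlier results of these data known: *Postn*, *Tnc*, *Tnxb*, *Thbs1*, *Thbs2*, *Thbs3*, *Sparc*, *Spp1* and *Fn1*. Each was matched by its mouse symbol to 1 of the 25719 gene identifiers counted, and all 9 passed the filter on low counts in every comparison. Bulk RNA-sequencing was performed on 28 tissue homogenates, 1 library per mouse, all on the C57BL/6 background (C57Bl6/J in the study's methods). Early mice (7 WT and 8 Fosl-2(Tg)) were 6 to 8 weeks old and all male. Established mice (6 WT and 7 Fosl-2(Tg)) were older than 14 weeks and 11 of them were female, with 1 male in each genotype (replicate 5 in both). Stage and sex therefore cannot be told apart between the cohorts. Fosl-2(Tg) mice carry an added mouse *Fosl2*, the gene of an AP-1 transcription factor, at an unselected genomic site together with an eGFP reporter. Expression is driven by H2Kb, a class I MHC promoter that is active in most nucleated cells and so is not specific to tendon. WT animals came from the transgenic colony and lack the transgene, and no agent was given to either group.

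Matricellular proteins are secreted into the extracellular matrix, where they act mainly as modulators of cell adhesion, growth factor activity and fibril assembly rather than as load-bearing components. Many of them are abundant during development, wound repair and fibrosis and low in resting adult tissue. Fibronectin is itself a structural glycoprotein, which cells assemble into fibrils through integrins and on which collagen and several matricellular proteins are deposited. In tendon, tenascins, thrombospondins and SPARC surround and bind the type I collagen fibrils.

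Levels are given as CPM, read counts scaled to the library size after TMM adjustment, which sets libraries side by side on the assumption that most genes do not change. Library totals ranged from 9645598 to 66894396 counts. Tendon fibroblast markers (9 genes, among them *Scx* and *Tnmd*) were present in all groups. The list also holds *Thbs4*, *Comp* and *Fmod*, which stand in the lists of matricellular relatives or collagen fibril partners used below. Summed over the list, the 9 markers reached 19587 to 34254 CPM in established WT and 2142 to 27715 CPM in established Fosl-2(Tg) mice. The share of counts taken by *Col1a1* ranged from 10.5% to 27.2% in early mice and from 4.85% to 10.3% in established WT mice. In established Fosl-2(Tg) mice it ranged from 0.142% to 3.37%. Skeletal muscle markers (12 genes) spanned 139.9 to 50820 CPM over all mice. In such bulk tissue, fewer cells of a type and less RNA per cell cannot be told apart. *Fosl2* itself had a median of 75.7 CPM (58.8 to 136.2) in early WT and 87.1 CPM (63.3 to 156.1) in early Fosl-2(Tg) mice, and of 105.3 CPM (78.0 to 169.3) in established WT and 145.3 CPM (120.9 to 160.0) in established Fosl-2(Tg) mice. The genotypes overlapped in both cohorts, with log2 fold changes of 0.20 ± 0.24 (SE) early and 0.38 ± 0.15 established, neither past the threshold (edgeR FDR = 0.918 and 0.141).

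The promoters of the members were searched for the letters bound by the protein family to which FOSL2 belongs, because the compared genotypes differ in carrying a *Fosl2* transgene. The window ran from 250 bases before to 50 after the start of the canonical transcript (GENCODE M39 on GRCm39), and both strands were read. The AP-1 letters TGANTCA occurred in 1543 of 21571 such promoters (7.15%) and in 1 of the 9 members. The related CRE letters TGACGTCA, which cannot overlap TGANTCA in the same bases, occurred in 528 promoters (2.45%) and in 1 member. Both AP-1 matches lay upstream of *Thbs1* on chromosome 2, beginning 141 and 60 bases before its start, and the CRE match began 75 bases before the start of *Fn1* on chromosome 1. None lies in an exon of the member. The matches are printed with 10 bases on either side, on the strand of the gene, and capitals mark the searched letters.
Thbs1, chr2:117941823-117941849, plus strand: acacccttagTGAGTCAgacggaaggc
Thbs1, chr2:117941904-117941930, plus strand: ccaccaggatTGACTCAggaggcagct
Fn1, chr1:71692477-71692504, minus strand: ccgtaccccgTGACGTCAcccggactct
These are matches of letters in a window. Binding was not measured, and other members may carry such letters elsewhere.

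Levels of different genes were compared per kilobase of exon, as CPM per kb of merged exon sequence. *Sparc*, which encodes a collagen-binding glycoprotein involved in procollagen processing, had the highest median in every group. It reached a median of 6817 CPM per kb in early WT and 8928 in early Fosl-2(Tg) mice, and 3512 CPM per kb in established WT mice. In these 3 groups its range was separate from that of the next gene. In established Fosl-2(Tg) mice its median was 522 CPM per kb (108.6 to 1883), and its range overlapped that of *Thbs1* at 356 CPM per kb (193.2 to 474.6). *Tnxb*, *Fn1*, *Thbs1* and *Thbs2* formed a middle tier in early WT mice, where neighbouring ranges overlapped and medians were 110.9 to 189.3 CPM per kb. *Spp1*, *Tnc* and *Thbs3* followed, with medians of 24.2 to 46.1 CPM per kb there. *Postn* had the lowest median in every group, from 0.898 CPM per kb in established Fosl-2(Tg) to 15.1 in early Fosl-2(Tg) mice. *Thbs1* moved from rank 4 of 9 in established WT to rank 2 in established Fosl-2(Tg) mice, and *Fn1* from rank 3 to rank 6.

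**Figure D1:**
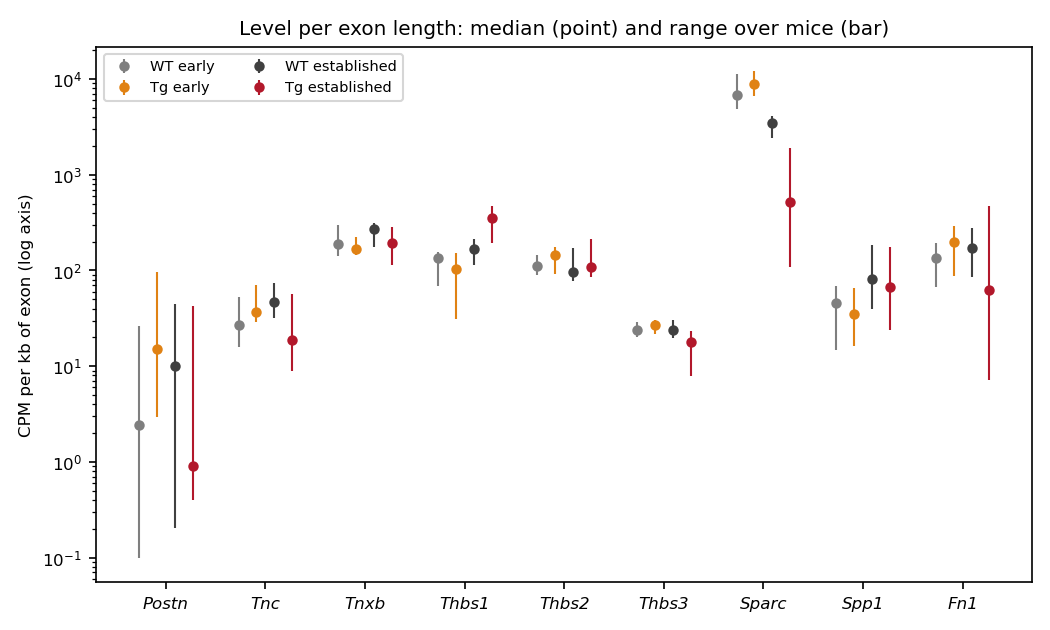
Median (point) and range over mice (bar) of the 9 genes, in CPM per kb of exon on a log axis, for the 4 groups. *Sparc* lies above the other genes in all groups but established Fosl-2(Tg), where its median is 522 CPM per kb, and *Postn* has the lowest median and a wide range in every group.

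In the early cohort, no member passed the threshold, an FDR of at most 0.05 in edgeR's quasi-likelihood test with Benjamini-Hochberg adjustment over all genes. Of 15138 genes tested, 6 (0.0396%) passed. None of the 9 members had an unadjusted p under 0.05, against 6.06% of all genes, and neither DESeq2 nor limma voom called a member. Early WT and Fosl-2(Tg) mice overlapped for all 9 members, where 0.0528% of genes did not. Nearest to the threshold was *Tnc*, the tenascin of embryonic and injured tendon. Its levels were 127.1 to 420.6 CPM (median 215.5) in WT and 228.4 to 556.0 CPM (median 295.6) in Fosl-2(Tg) mice. Its log2 fold change was 0.55 ± 0.26 (edgeR FDR = 0.828), and in 7 of 8 transgenic mice log2 CPM exceeded the WT mean.

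*Postn* had the largest early fold change and the least certain one. Periostin is secreted by fibroblasts, binds collagen and fibronectin and is produced in fibrotic tissue. In early WT mice it ranged from 0.865 to 232.2 CPM (median 21.3), a 268-fold range within 1 group. In early Fosl-2(Tg) mice it ranged from 25.7 to 842.8 CPM (median 132.6). The log2 fold change was 1.69 ± 0.93 (edgeR FDR = 0.836), 7 of 8 transgenic mice exceeding the WT mean. Its size depended on the fit, being 2.36 with the replicate block (FDR = 0.0799), 2.99 with limma voom and quality weights (FDR = 0.361), and 1.12 to 2.24 in edgeR fits without 1 library, the lowest without Fosl-2(Tg) replicate 4 and the highest without WT replicate 5. The early WT mouse at 0.865 CPM rested on 13 counts. Muscle and mural cell marker totals also differed between these WT mice. The mouse lowest for *Postn* had 446.0 CPM of skeletal muscle markers and 55.7 CPM of mural cell markers, and the highest had 13717 and 175.6 CPM. With the muscle marker mean as a covariate the early *Postn* log2 fold change was again 1.69, and the part of the mural cell markers was not tested.

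The other early differences were smaller. *Fn1* had a median of 2147 CPM (1066 to 3062) in WT and 3145 CPM (1399 to 4563) in Fosl-2(Tg) mice, a log2 fold change of 0.56 ± 0.29. *Sparc* differed by 0.29 ± 0.20 and *Thbs2* by 0.27 ± 0.15 on the log2 scale. *Thbs3* differed by 0.16 ± 0.10, and library-total scaling, which moved the median log2 fold change of all genes to -0.19, turned it to -0.030. *Tnxb*, *Spp1* and *Thbs1* were on the lower side, with log2 fold changes of -0.31 ± 0.17, -0.34 ± 0.31 and -0.39 ± 0.31. The edgeR FDR of these 7 genes ranged from 0.834 to 0.904. With the muscle marker mean as a covariate, log2 fold changes were -0.098 for *Tnxb*, -0.24 for *Spp1*, 0.23 for *Thbs3* and 0.41 for *Tnc*. No member was called in that fit.

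**Figure D2:**
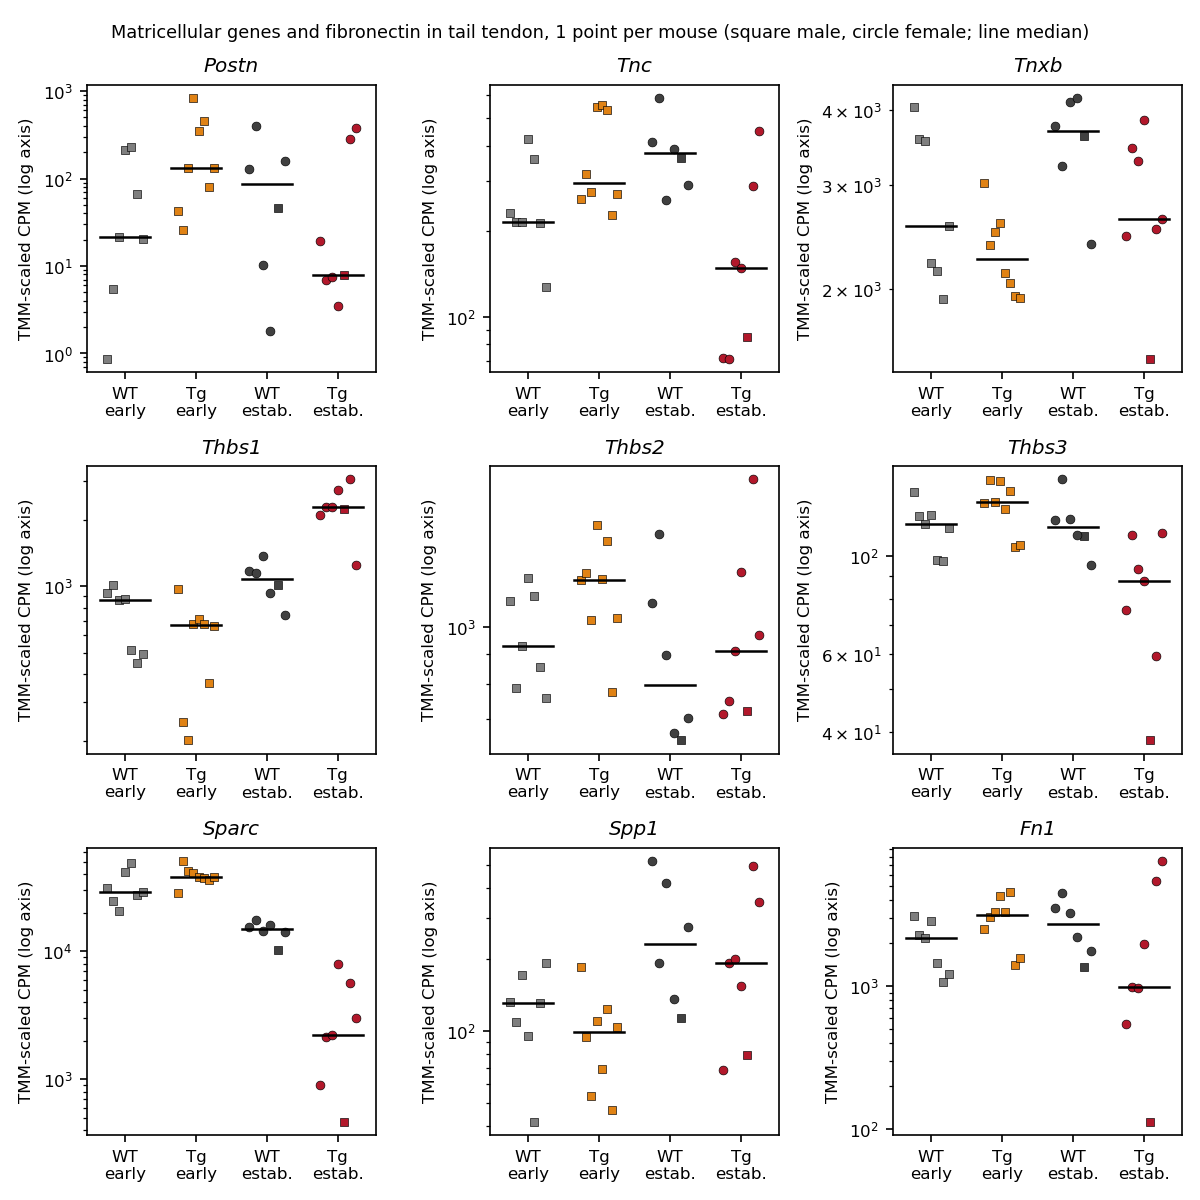
TMM-scaled CPM of each gene on a log axis, 1 point per mouse (squares male, circles female) and a line at the group median, for early and established WT and Fosl-2(Tg) mice. Early genotypes overlap for all 9 genes. Established Fosl-2(Tg) mice lie below all established WT mice for *Sparc*, and 6 of 7 lie above all established WT mice for *Thbs1*.

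In the established cohort, 2 of the 9 members passed the threshold, *Thbs1* rising and *Sparc* falling in Fosl-2(Tg) mice. Among all 15862 genes tested, 1032 (6.51%) passed, 3.14% higher and 3.37% lower. The members' share rests on 2 genes and is described, not tested. The median log2 fold change of the 9 members was -0.32, beside 0.0054 over all genes tested. Of the members, 7 had a log2 fold change below 0.

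*Thbs1* (ENSMUSG00000040152, chr2:117941974-117957616, plus strand, GRCm39) encodes thrombospondin 1, which binds CD36 and CD47 and can activate latent TGF-beta. Established WT mice ranged from 745.1 to 1370 CPM (median 1083). Established Fosl-2(Tg) mice ranged from 1248 to 3065 CPM (median 2299). In the transgenic group, 6 replicates lay between 2101 and 3065 CPM, above every WT mouse, and the overlap rested on replicate 7 alone, at 1248 CPM. The log2 fold change was 1.11 ± 0.20, a 2.15-fold increase (edgeR FDR = 0.0128), and all 7 mice exceeded the WT mean. The call was kept in each of the 13 fits that left out 1 library, with log2 fold changes of 1.02 to 1.21. With the tendon fibroblast marker mean as a covariate the log2 fold change was 1.19 and the FDR 0.0579.

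*Sparc* (ENSMUSG00000018593, chr11:55285317-55314067, minus strand) changed in the opposite direction. Established WT mice ranged from 10252 to 17677 CPM (median 14977), and established Fosl-2(Tg) mice from 462.9 to 8031 CPM (median 2226). The genotypes did not overlap, which held in the lower direction for 2.33% of all genes tested. The log2 fold change was -2.19 ± 0.52, a 4.57-fold lower level (edgeR FDR = 0.0292). The transgenic mice differed among themselves by 17.3-fold, replicates 5 and 1 being lowest at 462.9 and 900.2 CPM. The call was kept in 7 of 13 fits without 1 library. It was lost without established Fosl-2(Tg) replicate 1 (FDR = 0.0521), 2 (0.0593) or 3 (0.0521) and without established WT replicate 1 (0.0571), 2 (0.0597) or 4 (0.0546), while the log2 fold change of *Sparc* stayed between -2.61 and -2.0 in all 13 fits. Tendon fibroblast markers moved with *Sparc*. Their summed level was lowest in established Fosl-2(Tg) replicates 5 and 1 as well (2142 and 8406 CPM), and highest in replicate 4 (27715 CPM), which also had the highest *Sparc*. With the marker mean as a covariate, an alternative added after seeing the data, the *Sparc* log2 fold change was -1.09 (edgeR FDR = 0.0614). The list holds *Thbs4*, *Comp* and *Fmod*, so this fit does not isolate fibroblast content.

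**Figure D3:**
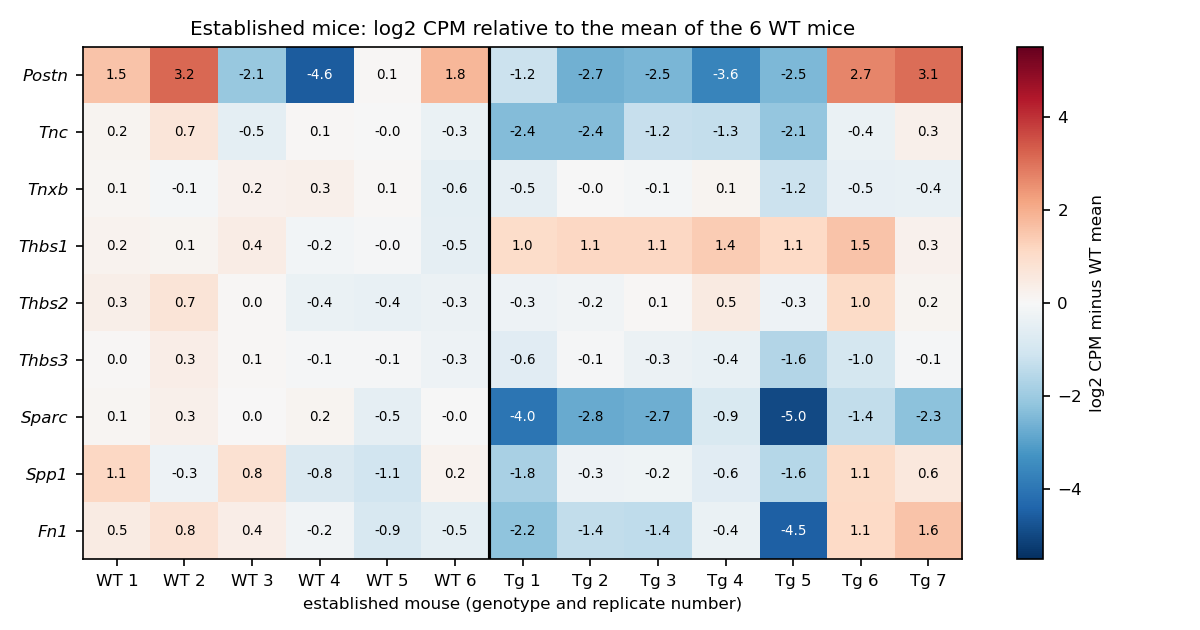
Log2 CPM of each gene in each established mouse minus the mean of the 6 WT mice, with values rounded to 1 decimal in the cells; red is above and blue below the WT mean. *Sparc* is below and *Thbs1* above the WT mean in all 7 Fosl-2(Tg) mice, and replicates 6 and 7 stand apart from replicates 1 to 5 in *Postn* and *Fn1*.

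Both tenascins had established log2 fold changes below 0 that did not pass the threshold. *Tnc* ranged from 256.8 to 590.0 CPM (median 375.4) in WT and from 71.0 to 450.8 CPM (median 148.4) in Fosl-2(Tg) mice. Transgenic replicates 1 to 5 lay between 71.0 and 155.7 CPM, below every WT mouse, while replicates 6 and 7 lay at 288.3 and 450.8 CPM within the WT range. Its log2 fold change was -1.07 ± 0.42 (edgeR FDR = 0.125). Without Fosl-2(Tg) replicate 7 it was -1.49 and *Tnc* passed (FDR = 0.0270), and limma voom with quality weights also called it (FDR = 0.0398). *Tnxb* encodes tenascin X, which spaces and links collagen fibrils and whose loss causes a form of Ehlers-Danlos syndrome. It ranged from 2385 to 4199 CPM in WT and from 1529 to 3849 CPM in Fosl-2(Tg) mice, with a log2 fold change of -0.33 ± 0.21 (edgeR FDR = 0.316).

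Neither of the other thrombospondins passed the threshold, and their difference from *Thbs1* was not tested. *Thbs2*, a member of the same trimeric subgroup, had a median of 799.1 CPM (643.5 to 1432) in WT and 909.6 CPM (713.5 to 1774) in Fosl-2(Tg) mice. Its log2 fold change was 0.16 ± 0.25 (edgeR FDR = 0.702). *Thbs3*, of the pentameric subgroup, ranged from 95.6 to 149.3 CPM in WT and from 38.3 to 112.7 CPM in Fosl-2(Tg) mice, and all 7 transgenic mice lay below the WT mean. The log2 fold change was -0.51 ± 0.21 (edgeR FDR = 0.141), and *Thbs3* passed in the fit of all 28 libraries together (FDR = 0.0473). *Thbs3* shares 347 of its 4881 exon bases (7.11%) with *Mtx1* on the opposite strand, and the strand setting of the counting is not given in the sources used here, so part of its counts is uncertain.

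*Spp1*, *Fn1* and *Postn* varied widely between mice of one genotype. *Spp1* encodes osteopontin, a secreted phosphoprotein that binds integrins and CD44. It ranged from 113.2 to 520.9 CPM in WT and from 68.3 to 496.0 CPM in Fosl-2(Tg) mice (log2 fold change -0.32 ± 0.47, edgeR FDR = 0.690). *Spp1* shares 362 of its 2843 exon bases (12.7%) with the annotated gene *Gm42793* on the same strand. *Fn1* ranged from 1350 to 4433 CPM in WT mice. In Fosl-2(Tg) mice it ranged from 112.4 to 7515 CPM, a 66.9-fold range, with replicates 6 and 7 at 5380 and 7515 CPM above every WT mouse and replicates 1, 2, 3 and 5 at 112.4 to 987.2 CPM below every WT mouse. The log2 fold change of -0.13 ± 0.71 (edgeR FDR = 0.926) averages over these mice. *Postn* was likewise highest in replicates 6 and 7 (285.0 and 376.2 CPM), against 3.47 to 19.2 CPM in the other 5, and it ranged from 1.78 to 395.0 CPM in WT mice. Its log2 fold change was -0.28 ± 1.23 (edgeR FDR = 0.905). Replicates 6 and 7 were also the highest of their group for *Tnc* and *Spp1*, but replicate 4 was the highest for *Sparc* and *Tnxb*. The WT group held mice as far apart in *Postn*, from replicate 4 to replicate 2. The intervals of *Postn* and *Fn1* are wide, and a difference in either direction was not detectable at this spread.

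**Figure D4:**
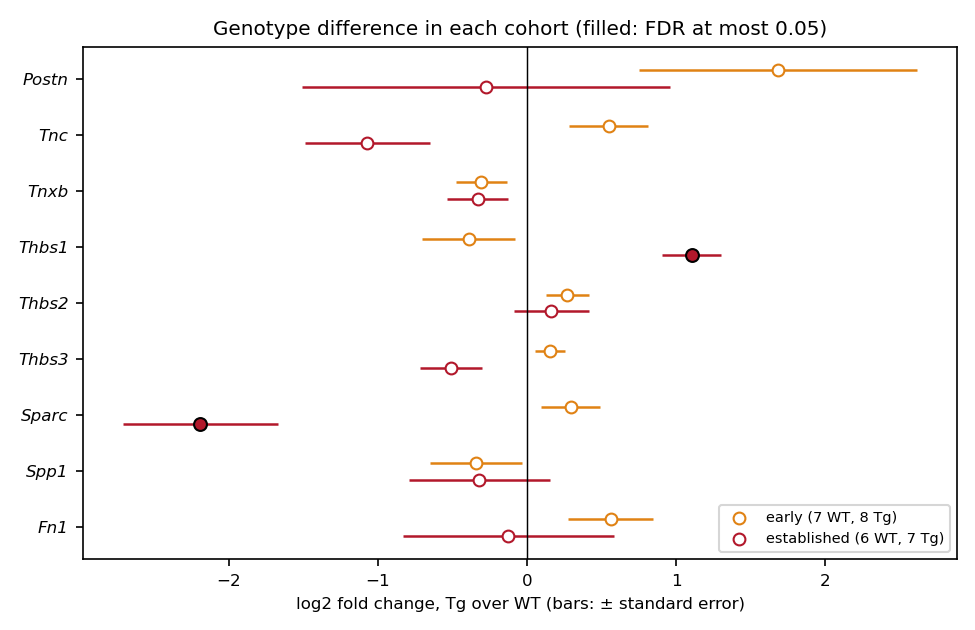
Log2 fold change of Fosl-2(Tg) over WT with its standard error for each gene in the early (7 WT, 8 Fosl-2(Tg)) and established (6 WT, 7 Fosl-2(Tg)) cohorts; filled points passed an FDR of 0.05. Only *Thbs1* at 1.11 and *Sparc* at -2.19 are filled, both in the established cohort, and *Postn* and *Fn1* have the widest established bars.

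Whether the genotype difference itself changed with stage was tested by the interaction term of a fit over all 28 libraries. It passed for 3 of the 9 members, while 7.43% of 16082 genes tested passed. For *Sparc* the established minus early difference was -2.49 ± 0.54 (edgeR FDR = 0.00937). For *Thbs1* it was 1.49 ± 0.40 (edgeR FDR = 0.0245), the early log2 fold change of -0.39 standing against 1.11 in the established cohort. For *Tnc* it was -1.63 ± 0.50 (edgeR FDR = 0.0453), from 0.55 to -1.07. Cell markers moved in the same test. Of 9 tendon fibroblast markers 7 lay below 0 and 2 above, and 2 were called lower, *Tnmd* (-1.94) and *Scx* (-1.41). Also called lower were 2 of 6 tested chondrocyte, 1 of 4 osteoclast and 1 of 3 mineralising cell markers. Called higher were 3 of 12 macrophage, 4 of 5 tested erythroid (list median 4.95) and 1 of 7 Schwann cell markers. No skeletal muscle, keratinocyte, endothelial, mural cell or adipocyte marker was called. *Col1a1* stood at -3.04. In the early cohort all 12 macrophage markers had log2 fold changes below 0 (median -0.43), against a median of 0.22 in the established cohort. All 3 erythroid markers tested early were also below 0 (median -0.99), against a median of 2.38 established. None of these early values was called (edgeR). The part of the cell markers in the members' interactions was not tested. *Sparc* and *Thbs1* kept the call in all 28 fits without 1 library. The *Tnc* call was kept in 9 of the 28 fits: those without early WT replicate 4 or 5, early Fosl-2(Tg) replicate 1, 3, 7 or 8, established WT replicate 3 or established Fosl-2(Tg) replicate 6 or 7. Over the other fits the FDR of *Tnc* reached 0.0857, without established WT replicate 2. Without the 2 established males *Sparc* was called (FDR = 0.00527), whereas *Thbs1* (0.0506) and *Tnc* (0.0860) were not. *Thbs3* had an interaction of -0.67 ± 0.23 (edgeR FDR = 0.0662), which passed without established Fosl-2(Tg) replicate 7 (0.0322) or 2 (0.0412). The interactions of *Postn* (-1.98 ± 1.60), *Fn1* (-0.70 ± 0.76), *Thbs2* (-0.11 ± 0.29), *Tnxb* (-0.031 ± 0.27) and *Spp1* (0.021 ± 0.58) did not pass.

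Between stages, *Sparc* was lower in older mice of either genotype. In WT mice it fell by 1.12 ± 0.22 on the log2 scale (edgeR FDR = 0.0159), from 20562 to 48770 CPM early to 10252 to 17677 CPM established. These ranges did not overlap, which held in the lower direction for 1.26% of genes, and *Sparc* was the only member to pass (4.74% of 15645 genes passed). In Fosl-2(Tg) mice it fell by 3.61 ± 0.51 on the log2 scale (edgeR FDR = 4.6e-05), again without overlap (8.29% of genes in that direction). *Thbs1* rose by 2.02 ± 0.31 in Fosl-2(Tg) mice (edgeR FDR = 8.0e-05), from 200.1 to 971.9 CPM early to 1248 to 3065 CPM established, without overlap (6.26% of genes in that direction). In WT mice it differed by 0.53 ± 0.22 (edgeR FDR = 0.170). *Spp1* differed by 1.15 ± 0.38 between stages in WT mice (edgeR FDR = 0.1005) and rose by 1.16 ± 0.39 in Fosl-2(Tg) mice (edgeR FDR = 0.0224). *Tnc* fell by 1.04 ± 0.39 and *Thbs3* by 0.65 ± 0.18 on the log2 scale in Fosl-2(Tg) mice (edgeR FDR = 0.0378 and 0.00889). In Fosl-2(Tg) mice 5 of 9 members passed, where 46.8% of 15470 genes did. The *Tnc* call was kept in 7 of 15 fits without 1 library, namely those without early Fosl-2(Tg) replicate 1, 2, 3, 7 or 8 or established replicate 6 or 7, and its FDR reached 0.0728 without established replicate 1. With library totals *Tnc* (-0.32, FDR = 0.421) and *Thbs3* (0.081, FDR = 0.676) lost the call, and *Tnxb* (0.99, FDR = 6.6e-05) and *Thbs2* (0.50, FDR = 0.0168) passed. That scaling called 12478 of 15470 genes, 11869 of them higher, with a median log2 fold change of 0.75 over all genes. The *Spp1* call was lost without established replicate 6 (0.83, FDR = 0.0691), and *Tnxb* passed without established replicate 5 (0.39, FDR = 0.0371). Stage effects in both genotypes compare male with mostly female mice.

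Some of the members varied together from mouse to mouse. After each group's mean log2 CPM had been subtracted, 9 of the 36 pairs of members were correlated over the 28 mice (Pearson's r, two-sided permutation p within groups, Benjamini-Hochberg adjusted over the 36 pairs). Of these, 8 were positive. The share of such pairs among all genes was not computed, so the count has no background beside it. *Fn1* and *Tnc* had r = 0.73 (rho = 0.70, permutation p = 0.00047, adjusted p = 0.00423, adjusted p for rho = 0.00324), which held within the early (0.62) and established (0.79) cohorts and was 0.58 without established Fosl-2(Tg) replicates 6 and 7, the 2 mice farthest from the median of *Tnc*. The other pairs were likewise recomputed without the 2 mice farthest from the median of 1 gene. *Thbs2* was correlated with *Tnc* (r = 0.68, rho = 0.71, adjusted permutation p = 0.00423, and 0.74 without 2 mice) and with *Fn1* (r = 0.68, rho = 0.80, adjusted permutation p = 0.00423, and 0.61 without 2 mice). Each pair among these 3 genes passed by both coefficients. *Postn* was correlated with *Tnc* (r = 0.62, rho = 0.55, adjusted permutation p = 0.00698, and 0.74 without 2 mice) and negatively with *Tnxb* (r = -0.53, rho = -0.61, adjusted permutation p = 0.0460, and -0.43 without 2 mice).

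*Tnxb* varied with *Thbs3* (r = 0.67, rho = 0.56, adjusted permutation p = 0.00423, and 0.51 without 2 mice). *Sparc* varied with *Thbs2* (r = 0.62, rho = 0.69, adjusted permutation p = 0.00936, and 0.56 without 2 mice) and with *Fn1* (r = 0.73, rho = 0.65, adjusted permutation p = 0.0460, and 0.63 without 2 mice). The *Sparc* and *Fn1* relation was r = 0.82 in the established and 0.11 in the early cohort, so the pooled value rests on the established mice. That of *Spp1* and *Fn1* (r = 0.58, rho = 0.49, adjusted permutation p = 0.0258, 0.0515 for rho, and r = 0.58 without 2 mice) was 0.75 in the established and 0.15 in the early cohort. No pair with *Thbs1* passed by Pearson's r, its values of r lying between -0.10 and 0.35. By Spearman's rho *Thbs1* passed with *Thbs2* alone (rho = 0.45, adjusted permutation p = 0.0445), where r was 0.35 (adjusted permutation p = 0.134). *Tnc* with *Sparc* and *Thbs3* with *Fn1* likewise passed by rho only. Levels within a library share its depth and its tissue composition. Marker lists moved with these pairs, described here by r of each member with the mean of the list over the 28 mice after subtraction of group means. *Postn* had r = 0.68 with mural cell, 0.64 with endothelial, 0.59 with skeletal muscle and 0.59 with adipocyte markers. It had 0.56 with osteoclast and 0.51 with chondrocyte markers. *Tnxb* had -0.71 with both mural cell and skeletal muscle, -0.67 with endothelial and -0.60 with adipocyte markers. With tendon fibroblast markers, a list that holds *Thbs4* and *Comp*, r was 0.90 for *Sparc*, 0.83 for *Fn1*, 0.56 for *Thbs2* and 0.53 for *Tnc*. With chondrocyte markers it was 0.85, 0.73, 0.61 and 0.73. *Thbs1* lay between -0.19 and 0.15 for all 12 lists. The part of these cells in the pairs was not tested.

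**Figure D5:**
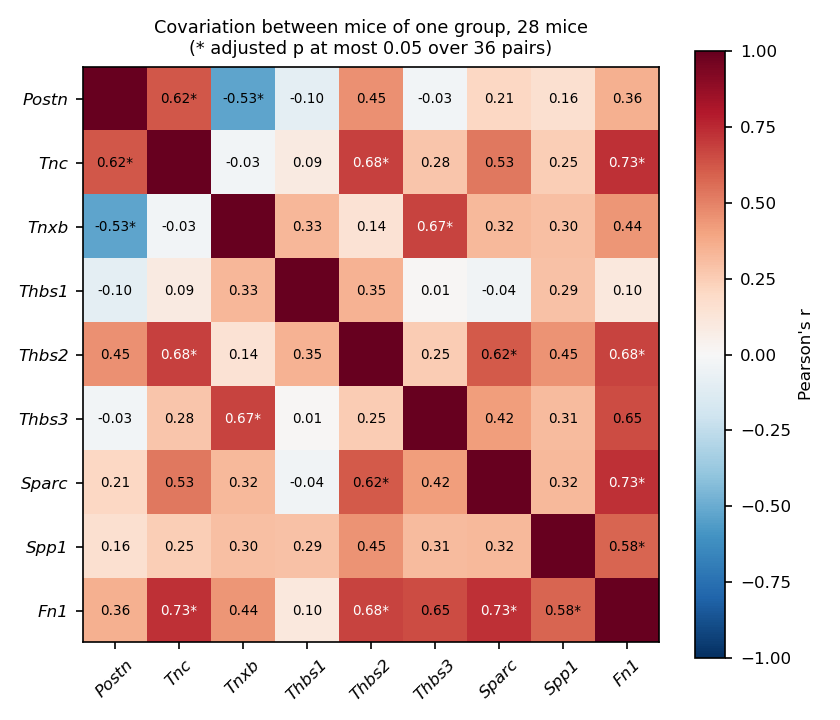
Pearson's r of log2 CPM between each pair of the 9 genes over 28 mice after subtraction of group means; asterisks mark an adjusted permutation p of at most 0.05 over 36 pairs. *Tnc*, *Thbs2* and *Fn1* are joined by values of 0.68 to 0.73, *Postn* and *Tnxb* have -0.53, and the row of *Thbs1* holds no asterisk.

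For each member the 3 protein-coding genes of most similar profile were taken among 13332 genes, by r over the 28 libraries after subtraction of group means and without a test. *Sparc* was followed most closely by *Col1a2* (0.97), the second chain of type I collagen, *Clec11a* (0.96) and *Fam174b* (0.96). *Fn1* was followed by the tendon-rich thrombospondin gene *Thbs4* (0.93), *Il1rl1* (0.91), the receptor of interleukin 33, and *Ssc5d* (0.89). *Tnc* was followed by *Pxdn* (0.92), a peroxidase that crosslinks collagen IV, by the MHC class II gene *H2-Ab1* (0.90) and by *Cd74* (0.89). *Postn* was followed by *Fbn2* (0.91), which encodes the fetal microfibril protein fibrillin 2, *Kif26b* (0.85) and *H2-Aa* (0.84), another MHC class II gene. For *Tnxb* the genes were *Tsc2* (0.94), *Bbs1* (0.94) and *Stimate* (0.94), and for *Thbs3* they were *Elk3* (0.89), *Lrrc32* (0.87), which encodes a receptor for latent TGF-beta, and *Arpc1b* (0.87). *Thbs2* was nearest to *Adcy2* (0.82), *Col12a1* (0.79) and *Cers6* (0.76). The likeness was lowest for *Thbs1*, whose nearest genes were *Otud1* (0.74), *Wbp11* (0.74) and *Smad1* (0.72), and for *Spp1*, with *Tspan4* (0.79), *Ecm2* (0.70) and *Gm49368* (0.68).

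Genes around the members were described through lists of related matricellular genes, receptors, TGF-beta genes and collagen fibril partners. In the early cohort none of the 17 tested matricellular relatives, 18 receptors, 12 TGF-beta genes and 12 fibril partners passed. In the established cohort, where 3.37% of all genes were called lower and 3.14% higher, 2 of 18 matricellular relatives fell and none rose. Counts from lists this short are described, not tested. *Spon2*, which encodes mindin, fell by 2.30 ± 0.49 on the log2 scale (edgeR FDR = 0.0207), and *Tnr*, tenascin R, fell by 1.64 ± 0.42 (edgeR FDR = 0.0367). Of 18 receptors, none rose, and the heparan sulfate proteoglycan gene *Sdc1* alone fell by 1.41 ± 0.34 (edgeR FDR = 0.0299). Of 12 TGF-beta genes, 1 rose, the co-receptor *Tgfbr3*, by 0.65 ± 0.18 (edgeR FDR = 0.0487). Of 12 fibril partners, 3 fell and none rose. *Col1a1* fell by 2.50 ± 0.63 (edgeR FDR = 0.0356) and *Col1a2* fell by 2.23 ± 0.57 (edgeR FDR = 0.0367) on the log2 scale, more than the third, *Col12a1*. *Sparc* stood at -2.19 beside them, and the differences among these genes were not tested. The list medians were -0.22 for the relatives, -0.034 for the receptors, -0.12 for TGF-beta and -0.55 for the fibril partners, beside 0.0054 over all genes.

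Markers of other cells were summed beside these results, again with 3.37% of all genes called lower and 3.14% higher in the established cohort. Tendon fibroblast markers had 2 of 9 genes called lower in established Fosl-2(Tg) mice, *Tnmd* (-2.03) and *Scx* (-1.27), and none higher. Of 12 macrophage markers 1 was called higher, the scavenger receptor *Cd163* (1.07), with summed levels of 736.7 to 1262 CPM in WT and 936.7 to 1615 CPM in Fosl-2(Tg) mice. *Spp1*, which macrophages and bone cells can express, did not pass. Mineralising cell markers summed to 29.0 CPM at most in any mouse, and *Dspp* had no count in any library. Of 4 tested osteoclast markers *Atp6v0d2* (2.53) and *Acp5* (1.40) were called higher and *Ctsk* (-1.19) lower, 3 of 7 chondrocyte markers lower, among them *Matn3* (-2.50) and *Chad* (-1.90), and 1 higher, *Cnmd* (1.77), and of 7 mural cell markers *Acta2* was called lower (-0.72). No skeletal muscle, endothelial, Schwann cell, adipocyte, erythroid or keratinocyte marker was called in the established cohort (edgeR). All 12 skeletal muscle markers had log2 fold changes below 0 (median -1.72), and all 4 tested erythroid markers above 0 (median 2.38), with summed erythroid levels of 8.94 to 20.1 CPM in WT and 10.3 to 126.9 CPM in Fosl-2(Tg) mice. With the muscle marker mean as a covariate in the established cohort, log2 fold changes were 1.03 for *Thbs1*, 0.075 for *Thbs2* and -0.44 for *Tnxb*. Beyond the marker covariates, the part of these cells in the members' results was not tested.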

How the data were processed

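Tail tendon RNA from 28 mice had been depleted of rRNA and sequenced. The authors mapped reads with STAR to GRCm39 with GENCODE M26 and counted them per gene with featureCounts. The deposited values are raw counts, neither normalised nor filtered, and strand setting and treatment of multi-mapping reads are not given in the sources used here. Of 25719 identifiers, 25505 were named with GENCODE M39, which also gave exon lengths and promoters. Groups, sex and replicate numbers came from the labels. Library totals of 9645598 to 66894396 set the counting precision, and each library was 1 mouse, so errors reflect spread between mice. No pair of libraries of 1 group agreed within sampling noise (chi-square per degree of freedom at least 7.02).

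Counts were filtered with filterByExpr (minimum count 10, minimum total 15), scaled by TMM and tested with the quasi-likelihood test of edgeR 4.0.16 in R 4.3.3 on the libraries of each comparison, or on all 28 for the interaction, without covariates. P-values were adjusted by Benjamini-Hochberg over all genes tested and called at an FDR of at most 0.05. The standard error is the log2 fold change divided by the square root of F. CPM per mouse used TMM over all 28 libraries, and log2 CPM a prior count of 2. Correlations used 100000 permutations. Scripts were tested on simulated data. The members and lists were chosen with earlier results of these data known. Beside the members, *Fosl2* and *Col1a1*, the text names up to 2 genes per list, cohort and direction with the largest called log2 fold change and a mean of at least 1 CPM, and the 3 protein-coding genes most like each member. Genes that stand in 2 lists are named as well.

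Alternatives were DESeq2 1.42.0 with default parameters, library totals, RLE scaling, no filter, a replicate block, limma 3.58.1 voom with sample weights, all groups fitted jointly, removal of muscle, erythroid and keratinocyte genes, sex as a covariate, females only or without the established males, a prior count of 0.5, and each library left out in turn. The marker covariates were chosen after seeing the data. In the early cohort, same-numbered mice deviated together in each of 7 pairs (correlation 0.129 to 0.363), though 0 of 7 correlated best with their own number, and the replicate block left 0 early members called. Of the 8 keratinocyte markers listed, 1 symbol was not matched. Figures were drawn with matplotlib 3.10.9.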

Additional observations from a re-analysis of the deposited data

Results flagged for a closer look

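The lowest established Fosl-2(Tg) mouse for *Thbs1*, replicate 7 at 1248 CPM, lay apart from the others of its group, its gap to the nearest mouse being 0.580 of the whole range against a critical value of 0.568. Of 36 groups of members examined this was 1, and chance flags about 1 in 20.

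The genotype difference between Fosl-2(Tg) and WT mice itself differed between the established and early cohorts for 3 members by the interaction test: *Sparc* by -2.49, *Tnc* by -1.63 and *Thbs1* by 1.49 on the log2 scale. Early mice were all male and established mice mostly female, so stage and sex cannot be told apart in these values.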

How the results depend on the processing

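The count of members called in the early cohort was 0 in all 9 alternatives and in every fit without 1 library. In the established cohort 2 members became 4 with the replicate block (*Sparc*, *Thbs1*, *Thbs3*, *Tnc*) and 0 with the tendon fibroblast marker covariate, which lowered the calls over all 15862 genes from 1032 to 46, and fits without 1 library called 1 to 3 members. Established numbers did not pair the mice, 4 of 6 correlations being over 0.1 (-0.223 to 0.688, 2 of 6 best with their own number). The interaction count of 3 members became 1 without the established males, with 2 to 4 members without 1 library. Between stages, 1 member in WT mice became 2 with DESeq2 (*Sparc*, *Spp1*) and with library totals (*Sparc*, *Tnc*), always 1 without 1 library, and the 5 in Fosl-2(Tg) mice were 4 to 5. Their count was 5 in all alternatives, but not always of the same genes. *Thbs3* and *Tnc* gave way to *Thbs2* and *Tnxb* with library totals, where 12478 of 15470 genes passed. *Tnc* gave way to *Tnxb* without the established males. Correlated pairs numbered 8 or 9 by Pearson's r and 11 by Spearman's rho. The causes were not tested.

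Library totals moved the median of all genes to -0.19 early, 0.33 established, 0.53 for the interaction, 0.23 between WT and 0.75 between Fosl-2(Tg) stages. They moved the share of higher calls in the established cohort from 48.3% to 95.9%. With them *Thbs3* early (-0.030) and established *Postn* (0.031) and *Fn1* (0.17) were reversed. So were *Tnxb* (0.48) and *Thbs2* (0.36) in the interaction and *Thbs2* between WT stages (0.14). Between Fosl-2(Tg) stages *Thbs2* (0.50), *Thbs3* (0.081) and *Fn1* (0.46) were reversed. *Sparc* and *Thbs1* kept direction and call under library totals in the established cohort. That scaling called 7544 of 15862 genes there, 7236 of them higher, so a kept higher call says little. The fibroblast covariate reversed established *Postn* (1.32), *Tnxb* (0.012), *Spp1* (0.42) and *Fn1* (1.46), and leaving out the established males the interactions of *Tnxb* (0.068) and *Spp1* (-0.016). Without 1 library, values crossed 0 for established *Postn* (-1.17 to 0.56), *Fn1* (-0.72 to 0.088) and *Thbs2* (-0.028 to 0.34), for the interactions of *Spp1* (-0.33 to 0.30), *Tnxb* (-0.14 to 0.066) and *Thbs2* (-0.30 to 0.064), and between WT stages for *Thbs3* (-0.052 to 0.076) and *Postn* (-0.22 to 1.12). None of these reversed values was called but *Thbs2* between Fosl-2(Tg) stages with library totals (FDR = 0.0168). The spread between mice limits *Postn* and *Fn1*, and the lowest *Postn* count in a mouse was 13.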
